A study of Mus musculus with 4 samples.

Results

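The 30 genes described here make, take up, move, export or control cholesterol. They were chosen by name: every non-control array probe named for one of them in the scanner files was taken, and the brightest kept probe stood for the gene. All 30 had such a probe and all 30 passed the filter on dim probes, out of 17555 genes tested. They comprise 18 enzymes of synthesis, 8 genes of uptake, transport within the cell and efflux, and 4 genes that control SREBP, the transcription factor of sterol synthesis.

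The samples were whole dorsal skin of male C57BL/6 mice at 42 days of age, labelled as telogen, when hair follicles rest. In the cKO group Fgf18, a secreted growth factor gene, was deleted conditionally in epithelium that expresses keratin 5, so the deletion was directed to that epithelium and not to the other cells of the skin. The WT group was C57BL/6 skin without that deletion. PolyA RNA of 3 mice was combined into 1 pool per genotype, and each pool was run on 2 one-colour arrays. The arrays of a pool are technical duplicates, so every standard deviation (SD), standard error (SE) and p-value below measures the spread between arrays and compares 2 RNA pools, not the genotypes.

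Cells build cholesterol from acetyl-CoA through mevalonate, isoprenoid and squalene intermediates to lanosterol, and a second run of enzymes turns lanosterol into cholesterol. When membrane sterol is low, the escort protein SCAP carries SREBP to the Golgi, where it is cut free to switch on the genes of synthesis and of lipoprotein uptake; INSIG proteins hold the complex back when sterol is ample. Oxysterols activate the LXR receptors, which switch on efflux transporters. In skin, cholesterol is one of the lipids of the permeability barrier that epidermal cells secrete, and sebaceous glands also make lipid.

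A level here is the log2 of a probe's background-corrected intensity over the 75th percentile of its array, and a change is the cKO mean level minus the WT mean level. A gene was called at a Benjamini-Hochberg adjusted p under 0.05 in limma and a change of at least 1.5-fold, and only called genes are said to have risen or fallen. Fgf18 itself had a level of 1.86 ± 0.0026 in the cKO pool and 2.19 ± 0.02 in the WT pool (SD, n = 2 arrays each), a change of -0.33 with an adjusted p of 0.00353 that was under the fold threshold. The sources used here leave the deleted region of Fgf18 unstated, so its probe is no check of the labels. Duplicate arrays correlated at 0.997 across genes in cKO and 0.996 in WT, and the highest correlation between pools was 0.964. Hair matrix, shaft and inner root sheath markers went against the label of resting skin in the cKO pool: 11 of 11 measured were called higher, with a summed level (relative to the 75th percentile, linear scale) of 285.1 and 287.2 in cKO and 2.21 and 2.28 in WT. All 8 markers of dividing cells were also called higher, where 5.67% of all genes tested were.

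Among the 30 genes, 1 fell and none rose. The gene that fell was Insig1, at 2.07-fold lower in the cKO pool. This is 3.33% of the 30, near the background of 4.82% of all genes tested that were called lower; 5.67% were called higher and 10.5% either. At a change of at least 2-fold, which Insig1 also passed, 0.854% of all genes were called lower and 2.93% higher. Most of the other genes nevertheless had lower levels in the cKO pool by smaller amounts. Changes were negative for 23 of the 30 and positive for 7, and their median was -0.29, beside -0.05 over all genes tested. At an adjusted p under 0.05 with no fold minimum, 21 were lower and 3 higher, where 33.6% of all genes tested were lower, 22.2% higher and 55.8% either. The arrays of the pools did not overlap for 26 of the 30 genes, against 81.9% of all genes, so the lack of overlap by itself sets these genes little apart from the array as a whole.

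**Figure D1:**
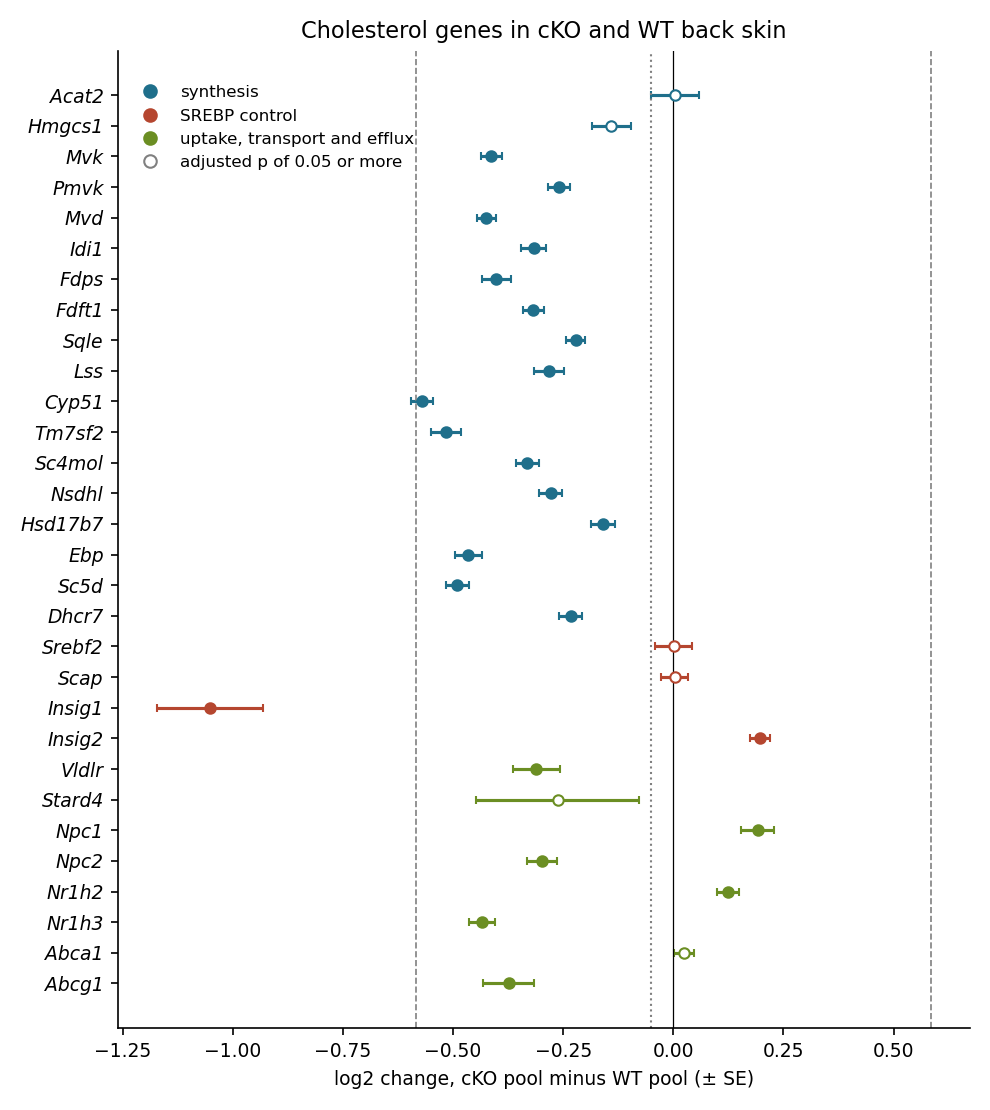
Change of each of the 30 genes (log2, cKO pool minus WT pool, bars ± SE, 2 arrays per pool), grouped by role with synthesis in pathway order; dashed lines mark 1.5-fold, the dotted line marks the median of all genes tested at -0.05, and open points have an adjusted p of 0.05 or more. Insig1 lies alone beyond the 1.5-fold line at -1.05, and 17 of the 18 synthesis genes lie left of 0.

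Among the groups of the 30 genes, the 18 synthesis enzymes had the most uniform direction. Of them, 17 were lower in the cKO pool and 16 had an adjusted p under 0.05, all of them lower, beside 33.6% of all genes tested. None reached 1.5-fold, and the limma count was 0 called higher and 0 called lower. The median change was -0.32, with an SD of 0.0093 over the 4 pairings of a cKO array with a WT array. The pairings share arrays, so this SD is a spread between arrays and not an error of the median. Summed over the 18 genes, the level on the linear scale was 118.6 and 118.8 in cKO, against 145.0 and 148.2 in WT, a ratio of 0.81. Genes at least as bright as the dimmest of the 30 numbered 10220; 62.2% of them had a negative change, 41.4% were lower at an adjusted p under 0.05, and their median change was -0.07. In whole skin, fewer cells of a type and less RNA per cell cannot be told apart.

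The plot of levels by array shows the synthesis genes as a band. All but Acat2 lay lower on both cKO arrays than on both WT arrays, which 48.1% of all genes did.

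**Figure D2:**
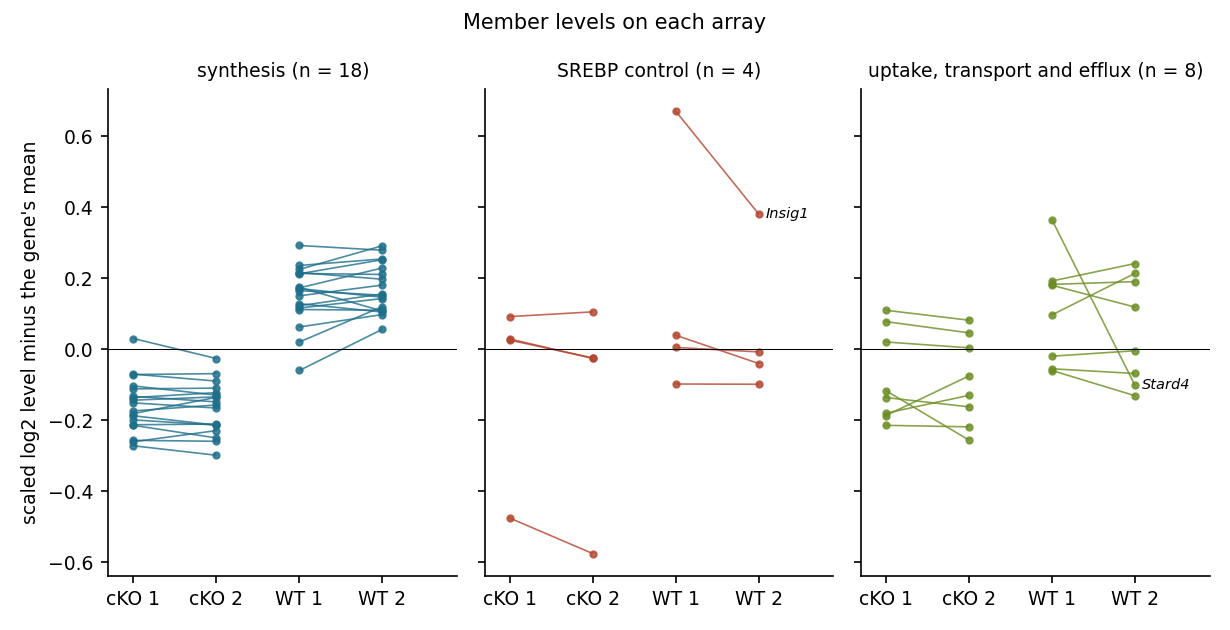
Level of each gene on each array (log2 scale, minus that gene's mean over the 4 arrays), with lines joining the duplicate arrays of a pool; panels hold the 18 synthesis genes, the 4 SREBP control genes and the 8 genes of uptake, transport and efflux. In the synthesis panel 17 of 18 genes do not overlap between pools, while Stard4 in the right panel has WT arrays 0.47 apart.

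By their brightest probes, the first 2 genes of the pathway differed least of the 18. Acat2, whose product condenses acetyl-CoA, had levels of -0.36 and -0.42 in cKO and -0.45 and -0.33 in WT, so the pools overlapped and the change was 0.00 ± 0.05 (SE, adjusted p = 0.957). Hmgcs1, the synthase that makes HMG-CoA, had levels of 4.24 and 4.25 in cKO and 4.34 and 4.44 in WT, a change of -0.14 with an adjusted p of 0.0695. Its pools did not overlap, but the gap between them, 0.09, was smaller than the difference of 0.10 between the WT duplicates. A dim second Hmgcs1 probe gave a change of -0.68 and another dim one -0.13, so the size of the Hmgcs1 difference depends on the probe; with the mean of its probes it was -0.32 (adjusted p = 0.00758). Under quantile normalization both turned sign, with changes of -0.0028 for Acat2 and 0.0037 for Hmgcs1.

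Within the mevalonate steps the levels stood further apart. Mvk, mevalonate kinase, had levels of -0.28 and -0.30 in cKO and 0.14 and 0.12 in WT, a change of -0.41 ± 0.02 (SE, adjusted p = 0.00235). Mvd, the decarboxylase that forms isopentenyl diphosphate, had levels of 1.53 on both cKO arrays and 1.95 on both WT arrays, a change of -0.42 (adjusted p = 0.00206), about 1.34-fold. Each gap between pools was many times the difference between duplicates. Pmvk, the kinase between these steps, differed less, at -0.26 with an adjusted p of 0.00527.

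The enzymes that join isoprene units into squalene and lanosterol followed the same direction. Idi1, the isomerase of isopentenyl diphosphate, had levels of 2.79 and 2.84 in cKO and 3.14 and 3.13 in WT, and its 2 probes gave -0.32 and -0.32. Fdps, farnesyl diphosphate synthase, had levels of 2.13 and 2.10 in cKO and 2.49 and 2.55 in WT, with -0.40 from each of its 2 probes. Fdft1, squalene synthase, was lower by -0.32 (adjusted p = 0.00363). Sqle, the squalene epoxidase, had the tightest duplicates of these enzymes. Its levels were 2.25 on both cKO arrays and 2.47 on both WT arrays, a change of -0.22. Lss, which closes the ring to give lanosterol, was at -0.28, but its 3 probes ran between -0.38 and -0.02. Over the 10 genes up to lanosterol the median was -0.30, and 8 had an adjusted p under 0.05.

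All 8 enzymes after lanosterol were lower at an adjusted p under 0.05, with a median of -0.40, and the widest change among all 18 was here. Cyp51, the lanosterol demethylase that opens this part of the pathway, had levels of 0.02 and -0.01 in cKO and 0.58 and 0.57 in WT. The change of -0.57 ± 0.02 (SE, adjusted p = 0.00166), 1.49-fold lower in cKO, stood just short of the 1.5-fold threshold. Its other probes gave -0.42 and -0.59. The probe with -0.59 crosses an exon junction, since its 60 bases span chr5:4092033-4092439 on the minus strand of mm9, and is printed to show that the difference was also read from spliced transcript:
Cyp51 junction probe: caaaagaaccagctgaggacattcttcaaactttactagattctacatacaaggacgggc

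Tm7sf2, a sterol reductase acting next to Cyp51, had levels of 1.61 and 1.61 in cKO and 2.09 and 2.16 in WT, a change of -0.52 (adjusted p = 0.00279), 1.43-fold. Sc5d, the desaturase near the end of the pathway, had levels of 1.03 and 1.06 in cKO and 1.53 and 1.54 in WT, a change of -0.49. Ebp, the sterol isomerase known from X-linked chondrodysplasia in humans, was at 3.52 and 3.49 in cKO and 3.95 and 3.99 in WT, a change of -0.46. These 3 genes lay 1.38-fold to 1.43-fold lower with no overlap between pools. Sc4mol, now named Msmo1, is the methylsterol oxidase; its levels were 4.97 and 4.99 in cKO and 5.30 and 5.33 in WT, a change of -0.33. Nsdhl, the dehydrogenase that works with it, was at -0.28, with 4 probes between -0.28 and 0.01. Hsd17b7, the ketosteroid reductase of the same complex of steps, had the smallest change of the 8 by brightest probes, at -0.16 (adjusted p = 0.0168), and its adjusted p was over 0.05 without cKO replicate 1 (0.0749), without cKO replicate 2 (0.0870), without WT replicate 2 (0.0697), and with normexp and quantile normalization, no filter on dim probes or the replicate block (0.0537 to 0.0839). Dhcr7, the reductase that gives cholesterol itself, was at -0.23 by its brightest probe and at 0.00 by a second one.

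Across the synthesis genes, 35 probes were kept. Of these, 33 had a negative change and 27 were lower at an adjusted p under 0.05 in a fit of all 26063 kept probes. Nsdhl was the gene among them whose probes differed in sign. Quantile normalization moved several of the changes toward 0 by over 1.5 times: Pmvk to -0.13, Sc4mol to -0.16 and Dhcr7 to -0.13. With normexp correction before it, Sqle also moved, to -0.14, and Dhcr7 had an adjusted p of 0.0533. With the mean of probes Nsdhl was at -0.15 and Dhcr7 at -0.12.

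**Figure D3:**
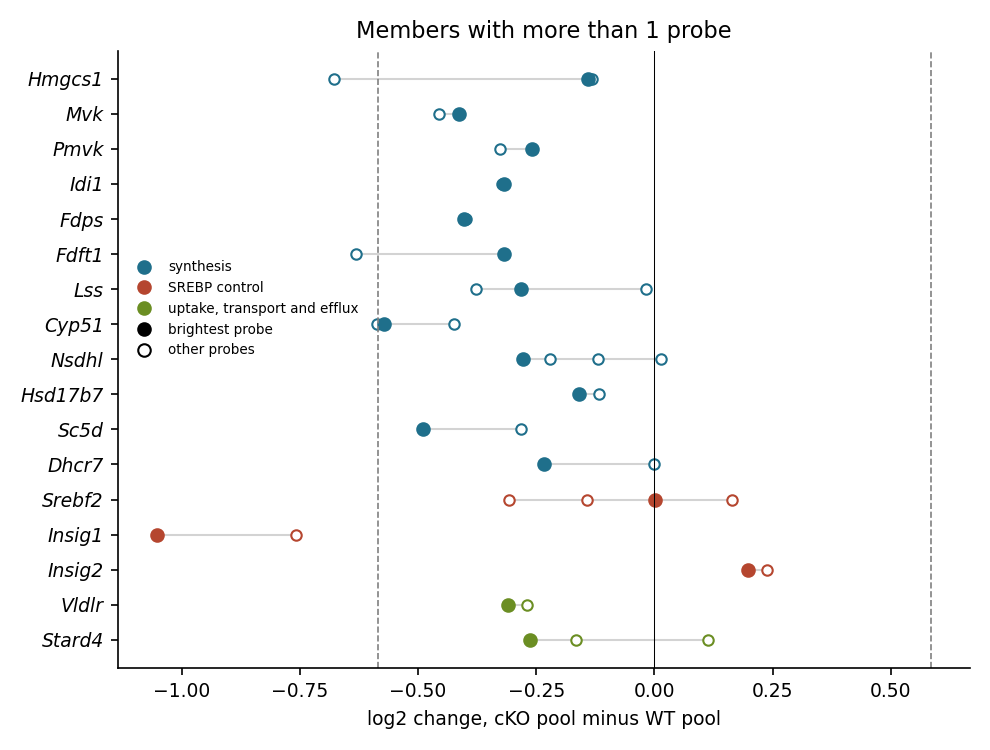
Change (log2, cKO pool minus WT pool) of every kept probe of the 17 genes with more than 1 kept probe; filled points are the brightest probe, which stands for the gene, open points are the others, and dashed lines mark 1.5-fold. The sign differs between probes for 3 genes, Nsdhl, Srebf2 and Stard4, while both Insig1 probes lie beyond 1.5-fold.

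RefSeq promoter windows, from 250 bases before to 50 after a transcription start on GRCm38.p6, were matched to 24 of the 30 genes, 15 of them synthesis genes with 18 windows. CCAAT, the box bound by NF-Y, a factor known to act beside SREBP, was searched on both strands and found in 14 of these 15 genes (77.8% of their windows), the exception being Acat2, where 41.1% of all 27025 genes in the table and 37.4% of all windows hold it. The GC box GGGCGG stood in 15 of the 18 synthesis windows and in 35.7% of all windows. Of the 4 SREBP control genes, 3 held CCAAT and 4 the GC box. Of the 5 uptake, transport and efflux genes with a window, 2 held CCAAT and 3 the GC box. Insig2, with a change of 0.20, and Srebf2, at 0.00, held both motifs, which were thus not confined to genes lower in cKO. Among windows with a GC box, 13 of 15 synthesis windows and 35.9% of all such windows also held CCAAT. Each motif was counted alone, so matches that overlap count for each. These matches describe letters in a window and are not shown to be bound.

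The 5 genes below are the synthesis genes with the largest changes and a RefSeq window. The 80 bases from 90 to 11 before the start are shown because all 5 hold a CCAAT box there. Since the stretch was chosen for its boxes, their presence in all 5 is no result. The share of all windows with a box in that stretch was not counted. Capitals mark CCAAT, or ATTGG where the box is on the other strand; all 5 genes lie on the minus strand of GRCm38.p6, and each sequence is written in the direction of transcription. The stretches are chr5:4104708-4104787 for Cyp51, chr19:6067861-6067940 for Tm7sf2, chr9:42264311-42264390 for Sc5d, chrX:8193523-8193602 for Ebp and chr8:122443433-122443512 for Mvd, which has 2 boxes.
Cyp51: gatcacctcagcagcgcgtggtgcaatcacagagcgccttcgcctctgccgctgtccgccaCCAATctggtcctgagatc
Tm7sf2: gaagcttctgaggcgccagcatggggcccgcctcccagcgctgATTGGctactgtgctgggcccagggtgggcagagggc
Sc5d: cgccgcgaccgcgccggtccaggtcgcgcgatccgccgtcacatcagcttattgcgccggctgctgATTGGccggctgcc
Ebp: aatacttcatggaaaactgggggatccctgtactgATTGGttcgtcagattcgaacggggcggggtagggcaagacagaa
Mvd: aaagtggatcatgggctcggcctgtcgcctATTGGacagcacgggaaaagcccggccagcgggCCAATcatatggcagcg

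The sterol regulatory element searched as TCACNCCAC, the classic SREBP site, was found on either strand in 1 of the 15 synthesis genes, Hmgcs1, and in 1.24% of all windows. It lies at positions -137 to -129 from the start, in chr13:119690194-119690253 on the plus strand of GRCm38.p6, and is shown, in capitals, because it was the only match among the synthesis genes.
Hmgcs1: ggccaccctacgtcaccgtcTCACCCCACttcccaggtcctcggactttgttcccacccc

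Of the 4 SREBP control genes, Insig1 fell and the others did not pass the threshold. Insig1, which retains the SREBP complex in the endoplasmic reticulum and is itself a known SREBP target gene, had levels of -1.23 and -1.33 in cKO and -0.08 and -0.37 in WT. Both cKO arrays were far below both WT arrays, and the WT duplicates differed by 0.29, the second-widest duplicate difference among the 30 genes after that of Stard4. The change was -1.05 ± 0.12 (SE, adjusted p = 0.00742), and 1.0% of all genes tested had a lower value. Without cKO replicate 2 the change was -1.002 and the adjusted p 0.0505, so that array's removal ended the call; over the other alternatives the gene remained called, with adjusted p from 0.00188 to 0.0456.

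A second Insig1 probe had levels of -2.20 and -2.15 in cKO and -1.34 and -1.49 in WT, a change of -0.76 with an adjusted p of 0.0055 over all probes. It spans an exon junction within chr5:28401146-28401618 on the plus strand of mm9, apart from the brightest probe at chr5:28404246-28404305. It is printed because it reads the called gene at another place on the transcript:
Insig1 junction probe: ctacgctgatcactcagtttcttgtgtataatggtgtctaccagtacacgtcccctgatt

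Insig2, the second retention protein, differed in the other direction. Its levels were 3.03 and 3.05 in cKO and 2.84 on both WT arrays, a change of 0.20 (adjusted p = 0.00753) that was 1.15-fold and under the threshold; a second probe gave 0.24. Srebf2, which encodes the SREBP that acts on cholesterol genes, had levels of 4.05 and 3.997 in cKO and 4.06 and 3.98 in WT, with overlapping pools and a change of 0.00 (adjusted p = 0.984). Its other probes gave -0.31, 0.16 and -0.14, so no single direction holds for Srebf2. Scap, the escort protein, had levels of 3.69 and 3.64 in cKO and 3.67 and 3.66 in WT, a change of 0.00 ± 0.03 (SE, adjusted p = 0.946). The size and sign of both depended on the scaling. With quantile normalization Srebf2 was at 0.13 (adjusted p = 0.103) and Scap at 0.14 (adjusted p = 0.0312), and with normexp and quantile normalization Srebf2 was at 0.14 (adjusted p = 0.0443) and Scap at 0.11 (adjusted p = 0.0625). Both were slightly negative with the authors' processed values, and Srebf2 also with median scaling.

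The 8 genes of uptake, transport and efflux were more mixed than the synthesis genes. None was called, with 0 higher and 0 lower in limma. At an adjusted p under 0.05 with no fold minimum, 2 were higher and 4 lower, beside 22.2% and 33.6% of all genes tested. The median change was -0.28, and the range ran from -0.43 to 0.19. Summed levels on the linear scale were 29.0 and 28.6 in cKO and 33.5 and 32.9 in WT. The 2 genes higher at an adjusted p under 0.05 numbered 0 without cKO replicate 1, without cKO replicate 2 or without WT replicate 2, and 1 without WT replicate 1 or with the replicate number as a block; the 4 lower numbered 2 without cKO replicate 2.

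Vldlr, a receptor that takes up lipoproteins, had levels of 1.17 and 1.22 in cKO and 1.45 and 1.57 in WT, a change of -0.31 (adjusted p = 0.0180). For transport within the cell, the lysosomal pair had changes of opposite sign. Npc1, the membrane protein that passes cholesterol out of lysosomes, had levels of -0.41 and -0.44 in cKO and -0.58 and -0.65 in WT, a change of 0.19 (adjusted p = 0.0227). Npc2, its soluble partner, had levels of 3.79 and 3.76 in cKO and 4.10 and 4.04 in WT, a change of -0.30 (adjusted p = 0.00732) that was -0.16 with quantile normalization. Stard4, a carrier of sterol between membranes, could not be placed: its levels were -1.01 and -0.90 in cKO and -0.46 and -0.92 in WT, so the pools overlapped, and the change of -0.26 ± 0.19 (SE) had an adjusted p of 0.300. Without WT replicate 1 the Stard4 change was -0.03 (adjusted p = 0.751), and without WT replicate 2 it was -0.50 (adjusted p = 0.0302).

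The LXR receptors also differed in sign. Nr1h3, which encodes LXR-alpha, had levels of 1.12 and 1.12 in cKO and 1.53 and 1.58 in WT, a change of -0.43 (adjusted p = 0.00288), 1.35-fold. Nr1h2, which encodes the widely expressed LXR-beta, had levels of 2.01 and 1.98 in cKO and 1.88 and 1.86 in WT, a change of 0.12 (adjusted p = 0.0272) that was 0.20 with quantile normalization. Of the efflux transporters that LXR switches on, Abca1, which loads cholesterol onto lipid-poor apolipoprotein, had levels of 2.16 and 2.14 in cKO and 2.12 and 2.13 in WT. Its change was 0.02 (adjusted p = 0.435), and the gap between the pools, 0.008, was smaller than the 0.016 between duplicates; with quantile normalization the change was 0.10 (adjusted p = 0.0393). Abcg1, which exports cholesterol to mature HDL particles, had levels of 0.04 and -0.10 in cKO and 0.34 and 0.35 in WT, a change of -0.37 (adjusted p = 0.0142). An exact DR4 repeat, the form of site that LXR binds, was also searched for and was in none of the members' promoter windows. Only 5 of the 32851 windows of the whole promoter table held it, so its absence tells little about LXR sites. Abcg1 had no window to search.

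Set against each other, the medians of synthesis and of uptake, transport and efflux were -0.32 and -0.28. Their difference of -0.04 was smaller than its SD of 0.071 over the 4 pairings of a cKO array with a WT array. Because the pairings share arrays, that SD is no error of the difference, and the difference was not tested. Without WT replicate 1 the difference was -0.16, since the median of uptake, transport and efflux moved to -0.15. The plot of cumulative changes shows the range of each group, which depends on the number of genes, here 18 and 8. The lowest synthesis change was -0.57 (Cyp51) and the lowest of the other group -0.43 (Nr1h3). The 3 positive changes of the uptake, transport and efflux genes have no counterpart among the synthesis genes apart from Acat2 at 0.00. Among the 3, Abca1 was at 0.02, with an adjusted p of 0.435 in limma.

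**Figure D4:**
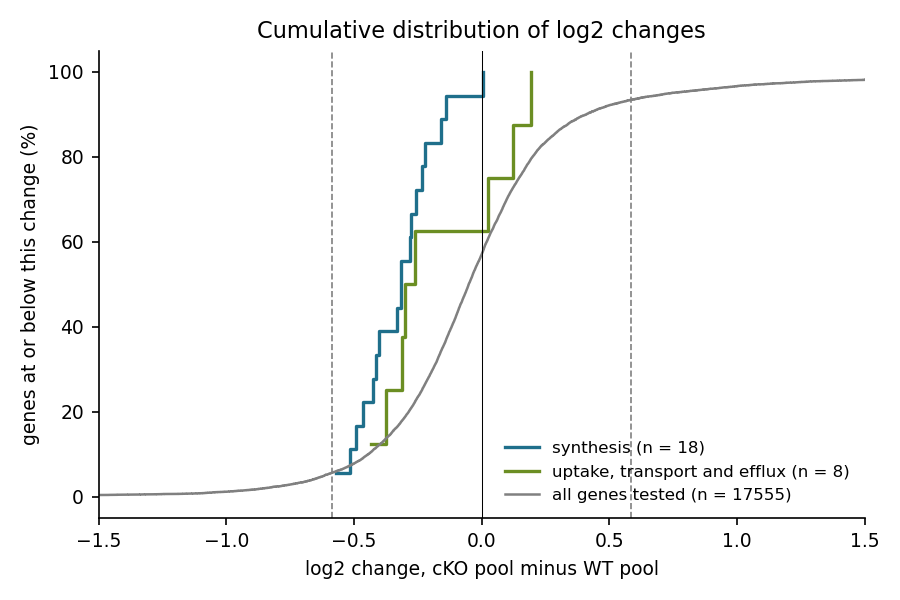
Share of genes (%) at or below a given change (log2, cKO pool minus WT pool) for the 18 synthesis genes, the 8 genes of uptake, transport and efflux, and all 17555 genes tested; dashed lines mark 1.5-fold. The synthesis curve lies left of that of all genes over most of its range and ends at 0.00, while the other group's curve ends at 0.19.

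Other genes of sterol metabolism, 34 in a list of which 32 were tested, had changes of both signs. Of these 4 fell, and 1 was called higher. This is 12.5% and 3.1% of the 32, beside 4.82% of all genes tested called lower and 5.67% called higher. Cyp7b1, an oxysterol hydroxylase, fell by 0.74 on the log2 scale, with levels of -1.05 and -1.08 in cKO and -0.34 and -0.31 in WT. Soat1, which esterifies cholesterol for storage, fell by 0.71, and Tmem97, a membrane protein that binds sterols, fell by 0.67. Srebf1, whose product acts mainly on fatty acid genes, fell by 0.61, with levels of 4.19 and 4.18 in cKO and 4.79 and 4.81 in WT. Srebf1 was close to the threshold at 1.53-fold, and its call was lost with quantile normalization (-0.49), scaling on probes well above background (-0.58) and normexp with quantile normalization (-0.47), which left 3 genes called lower.

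Lrp8, a lipoprotein and reelin receptor, was called higher, but it was not well above background on the WT arrays; it was at least 1.02-fold higher in cKO, with mean levels of -5.10 in cKO and -6.95 in WT. It was not called with normexp correction and quantile normalization, nor where probes had to be well above background on all arrays. The brightest 3 that were not called were Mbtps1, a protease that cuts SREBP, at -0.03 (0.10 with quantile normalization), Lrp1, a broad lipoprotein receptor, at -0.20, and Aacs, which makes acetoacetyl-CoA, at -0.48. At an adjusted p under 0.05 with no fold minimum, 14 of the 32 were lower and 8 higher, beside 33.6% and 22.2% of all genes tested. Their median change of -0.06 was near that of all genes.

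**Figure D5:**
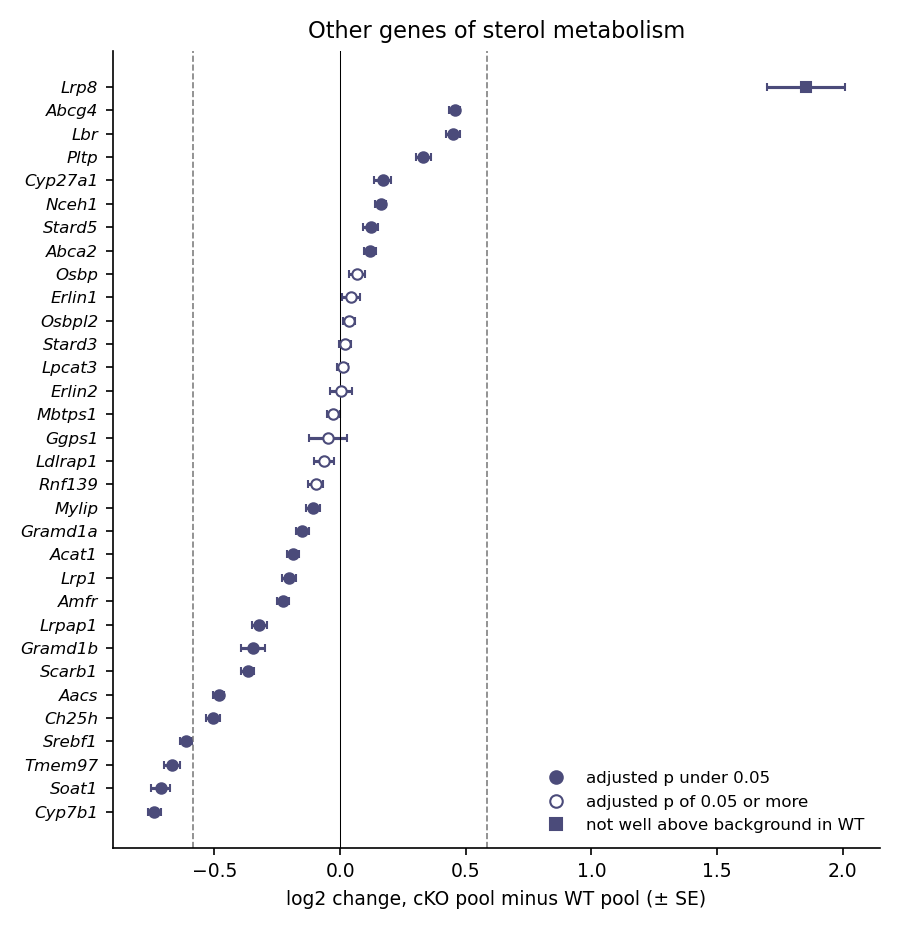
Change (log2, cKO pool minus WT pool, bars ± SE, 2 arrays per pool) of the 32 other tested genes of sterol metabolism, ordered by change; dashed lines mark 1.5-fold, open points have an adjusted p of 0.05 or more, and the square marks Lrp8, not well above background in WT. Cyp7b1, Soat1, Tmem97 and Srebf1 lie beyond 1.5-fold on the lower side.

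Markers of several cell types in the skin also differed between the pools. Over all genes tested, 4.82% were called lower and 5.67% higher. Of 10 sebaceous gland markers tested, 1 fell (Pparg, by 0.63, not called under either quantile normalization). Their median change was -0.32, with summed levels of 160.1 and 156.5 in cKO and 173.3 and 180.9 in WT. At an adjusted p under 0.05 with no fold minimum, 6 were lower and 3 higher, where 33.6% of all genes tested were lower and 22.2% higher. Of 7 markers of differentiated epidermis none was called in limma, while 7 had an adjusted p under 0.05, 1 of them higher and 6 lower. The median was -0.28, and the sums were 380.8 and 376.8 in cKO and 457.6 and 484.2 in WT. Of 11 adipocyte markers 4 fell, led by Gpd1, Lep and Slc2a4, and the median was -0.12. With no fold minimum, 6 were lower and 1, Fabp4, was higher at an adjusted p under 0.05. The sums were 504.1 and 511.0 in cKO and 555.1 and 578.6 in WT. Of 8 skeletal muscle markers 3 fell, with sums of 857.5 and 857.6 in cKO and 1177 and 1235 in WT. All 8 were lower at an adjusted p under 0.05. Their median was -0.51, beside -0.32 for the synthesis genes. None of 6 basal epidermis markers or 7 macrophage markers was called. At an adjusted p under 0.05, 1 basal marker was higher and 4 macrophage markers were lower, and the medians were -0.09 and -0.11. The sums for basal epidermis were 537.0 and 528.5 in cKO and 537.3 and 567.0 in WT, and for macrophages 138.7 and 136.1 in cKO and 149.1 and 150.4 in WT. Markers of dividing cells summed to 18.9 and 17.6 in cKO and 7.97 and 8.55 in WT. The part of any of these cell types in the levels of the cholesterol genes was not tested.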

How the data were processed

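The arrays were Agilent one-colour arrays hybridised with Cy3-labelled RNA (200 ng per labelling, per the labels). Feature Extraction 10.7.3.1 gave the deposited intensity per spot, already background-subtracted, per the file headers, with probe positions on mm9. The authors' deposited value table is a linear ratio: each column equals the processed intensity divided by 1 number per array, not centred per gene, with column medians of 0.101 and 0.0983 for cKO and 0.0987 and 0.101 for WT. It was used as an alternative. Non-control spots numbered 43379 per array, for 41174 probes, of which 62.1% to 69.1% were well above background and 0 were saturated. The number of arrays limits the precision. All 4 arrays shared 1 slide and 1 scan time.

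The log2 of the deposited intensity minus that of the array's 75th percentile over non-control spots (1403 and 1453 in cKO, 1271 and 1316 in WT) was taken, without spots marked as outliers, and spots of a probe were averaged. A probe was kept where both arrays of a group, cKO or WT, had it well above background, and the brightest kept probe stood for a gene. Names were updated through a RefSeq table of GRCm38.p6 (26690 probes by accession, 5189 by symbol, 952 by an older symbol, 8343 left as in the file). Which exon or untranslated region a probe lies in is not stated, since no mm9 gene models were used. The test was limma's moderated two-sided test (limma 3.58.1, R 4.3.3, lmFit then eBayes) with no covariates and with p-values adjusted by Benjamini-Hochberg across the 17555 genes, after a check on simulated data. Tables and plots used data.table (version 1.17.8), Python 3.11.15, pandas 2.3.3, numpy 2.4.6 and matplotlib 3.10.9.

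The members and gene lists were chosen with earlier results of these data known. Every member is named, with all called genes among the other sterol genes, the brightest 3 not called, and up to 3 called genes of a marker list. Same-numbered arrays of the pools deviated with a correlation of -0.04, so the numbers do not pair them.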

Additional observations from a re-analysis of the deposited data

How the results depend on the processing

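Direction and calls were recomputed under 15 alternatives: other scalings, corrections, filters, probe rules and moderation, a replicate block, and each array left out. Synthesis genes lower in cKO at an adjusted p under 0.05 numbered 14 to 17 and none was called under any of these. With no fold minimum the counts were 16 synthesis genes lower, 2 uptake, transport and efflux genes higher and 4 lower, 1 SREBP control gene higher, and 8 other sterol genes higher and 14 lower; at 2-fold or more, 0 other sterol genes were lower. SREBP control genes called lower numbered 0 to 1 with an array left out, being 0 without cKO replicate 2. Other sterol genes called higher numbered 0 with normexp and quantile normalization and 0 where probes had to be well above background on all arrays. All genes called lower numbered 483 with normexp and quantile normalization, beside 847.

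The synthesis median was -0.27 with quantile normalization, -0.28 with scaling on probes well above background, -0.27 with normexp and quantile normalization, and -0.32 to -0.31 with an array left out. The median of uptake, transport and efflux was -0.20 with normexp and quantile normalization, -0.20 with the mean of probes, and -0.29 to -0.15 with an array left out; the difference of medians was -0.13 with the mean of probes and -0.16 to -0.029 with an array left out. Uptake, transport and efflux genes at an adjusted p under 0.05 numbered 0 higher and 2 lower with no filter on dim probes (28034 genes tested, median change of all genes -0.16), and 0 to 1 higher and 2 to 4 lower with an array left out. With the replicate block 1 was higher; the arrays share only a number, and the block took the adjusted p of Nr1h2 to 0.0630 and that of Hsd17b7 to 0.0537, leaving 15 synthesis genes lower. It ended no call at 1.5-fold among the members, and 986 genes were called higher and 829 lower. The cause of these shifts was not tested, beyond the smaller number of arrays.

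Some changes turned sign. Acat2 was -0.0028 with quantile normalization, and -0.054 to 0.062 with an array left out. Hmgcs1 was 0.0037 with quantile normalization and -0.32 with the mean of probes. Srebf2 was -0.0015 with median scaling, -0.0023 with the authors' values, -0.072 with the mean of probes, 0.13 and 0.14 with quantile normalization alone and after normexp, and -0.039 to 0.041 with an array left out. Scap was -0.00066 with the authors' values, 0.14 and 0.11 with quantile normalization alone and after normexp, and -0.025 to 0.030 with an array left out. Mbtps1 was 0.096 with quantile normalization, 0.0063 with scaling on probes well above background and 0.091 with normexp and quantile normalization. Other sterol genes called lower numbered 3 to 5. The highest adjusted p over the alternatives was 0.0558 for Lss, 0.0870 for Hsd17b7, 0.0533 for Dhcr7, 0.0905 for Vldlr, 0.0507 for Npc2, 0.0618 for Abcg1, 0.0521 for Insig2, 0.108 for Npc1 and 0.121 for Nr1h2. Changes of any size between 2 pools run on duplicate arrays cannot be assigned to genotype, since the spread between mice was not measured.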
